A study of Homo sapiens with 6 samples.

Results

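The stress-activated protein kinase cascade was examined through 10 genes: the kinase MAP3K5 at its head, the MAP kinase kinases MAP2K3, MAP2K4, MAP2K6 and MAP2K7, the JNK genes MAPK8, MAPK9 and MAPK10, and the p38 genes MAPK11 and MAPK14. Every probe set of a deposited array table whose annotation named a single gene from these 10 was taken, which gave 20 of 54675 probe sets. They covered 7 of the 10 genes, with 2 to 5 probe sets each. MAP2K7 and MAPK14 were not analysed here, and the probe sets annotated to MAP2K3 carried the symbol of a pseudogene as well, so they fell outside the rule. The group was chosen by the signal of MAP2K6 in teriflunomide against DMSO arrays, so that difference is given as a description and supports nothing. The other genes were taken with the same comparison known, and their values are descriptions too.

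The samples were cultures of IMR32, an established human neuroblastoma line. The 3 arrays of the control group held RNA from cells kept in 0.1% DMSO for 24 h, and the 3 arrays of the treated group held RNA from cells given 118 µM teriflunomide for 24 h. Teriflunomide inhibits dihydroorotate dehydrogenase, a mitochondrial enzyme of pyrimidine synthesis. Whether treated wells also contained the solvent was not stated, and the replicates, labelled biological, were not tied to separate cultures, so their spread may be partly technical.

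A stress-activated cascade works in tiers. A MAP3K such as MAP3K5 (ASK1, which responds to oxidative stress) phosphorylates MAP kinase kinases, and these phosphorylate a threonine and a tyrosine in the activation loop of JNK or p38. MAP2K3 and MAP2K6 act on p38, MAP2K7 acts on JNK, and MAP2K4 can act on both. JNK and p38 then phosphorylate transcription factors such as JUN and ATF2, while DUSP phosphatases switch them off. The cascade runs by phosphorylation, which an RNA array does not see; the values below are transcript signals only.

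Values are log2 intensities after GCRMA, so a difference of 1 is a doubling of signal. The lowest value of every array was 2.18, and between 33.8% and 34.2% of an array's probe sets lay at it, so values near it carry little information on level. Brightness differs between probe sets for reasons other than transcript number, so levels are compared between arrays and not between probe sets. Correlation over all probe sets was at least 0.998 within each group and 0.989 to 0.990 between them. Of the neuroblastoma markers, 9 of 10 had a probe set. PHOX2A, GATA3, ISL1, MYCN and CHGA were bright on all arrays (group means of 10.25 or more). DBH was dim, and TH and STMN2 lay at or near the lowest value. HAND2 read an identical 6.92 on every array except DMSO replicate 2 (7.03), so its level is not interpreted. The summed linear intensity of the 9 was 56409 to 57982 in DMSO and 46644 to 50731 with teriflunomide. Such a sum is weighted to the brightest marker, MYCN (15.11 in DMSO), and the markers did not move alike. MYCN (-0.43) and CHGA (-1.46) were called lower, while PHOX2A (0.76), GATA3 (0.35) and ISL1 (0.22) were called higher. HAND2 and DBH were not called. Of 14 markers of other cell types, 13 had a probe set and 10 of these did not pass the filter. COL1A1, a collagen gene, was the bright exception at 10.81 in DMSO and 11.75 with teriflunomide. The summed linear intensity of the 13 was 1818 to 1967 in DMSO and 3387 to 3674 with teriflunomide; without COL1A1 it was 85.1 to 95.02 and 87.4 to 92.8. A sign of target length moved too: the ACTB signal at the 3′ end minus that at the 5′ end had a mean of 1.36 ± 0.03 on control arrays and 1.62 ± 0.07 on treated arrays (log2, SD, n = 3). The same difference for GAPDH was 0.049 and 0.063. These measures accompany every difference reported here, and their part in it was not tested. In bulk RNA, fewer cells of a kind and less RNA per cell cannot be told apart.

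MAP2K6, a p38 activator, was the member with the largest difference. RefSeq places 2 transcription starts of MAP2K6 on GRCh38.p14, and the 250 bases before each are shown, since this gene carries the main difference; the capitals mark a match to GGGCGG, the GC box, on either strand (here its reverse complement).
MAP2K6 upstream start, chr17:69414447-69414696, plus strand: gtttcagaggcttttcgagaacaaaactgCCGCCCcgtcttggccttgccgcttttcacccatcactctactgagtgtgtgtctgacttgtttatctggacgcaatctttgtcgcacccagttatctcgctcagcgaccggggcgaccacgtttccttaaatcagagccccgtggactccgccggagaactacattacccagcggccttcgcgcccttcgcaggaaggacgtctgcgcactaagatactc
MAP2K6 downstream start, chr17:69502012-69502261, plus strand: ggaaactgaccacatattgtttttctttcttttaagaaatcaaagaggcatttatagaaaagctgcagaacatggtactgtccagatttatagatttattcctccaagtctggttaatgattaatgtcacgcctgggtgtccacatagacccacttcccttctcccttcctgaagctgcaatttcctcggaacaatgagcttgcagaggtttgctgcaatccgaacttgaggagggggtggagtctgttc
The upstream window held 1 GC box and was 55.6% G or C, and the downstream window held 0 and was 43.2% G or C. Of 35116 windows of the same length in the table, 42.6% held a GC box. Neither MAP2K6 window held the E-box CACGTG (6.34% of windows), the AP-1 motif TGANTCA (6.57%) or the CRE TGACGTCA (1.65%) on either strand. Among the JNK and p38 genes, the windows of MAPK8 and MAPK11 each held 5 GC boxes and that of MAPK14 held 1. The windows of MAPK9 held 0, 1 and 2 GC boxes, and each window of MAPK10 held 0. Of the other motifs, 1 MAPK10 window held the CRE. Another MAPK10 window and 1 MAP2K3 window held the AP-1 motif. These matches describe letters only, and the arrays carry no measurement at these windows.

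MAP2K6 RNA signal was 19.9-fold lower with teriflunomide on its brighter probe set. On probe set 205698_s_at the DMSO arrays read 8.33, 8.59 and 8.59, and the teriflunomide arrays read 4.07, 4.47 and 4.02. All DMSO arrays lay more than 3 log2 units above all treated arrays, so the groups did not come near each other. The group means were 8.50 ± 0.15 and 4.19 ± 0.24 (SD, n = 3 each), a log2 difference of -4.32 (SE 0.15, 95% interval -4.69 to -3.95). By size of decrease in the deposited values, MAP2K6, the gene the group was chosen by, stood at rank 3 among the 11998 genes tested with 1 probe set each. The treated values lay below log2 5, where GCRMA's background model matters, and with values under 5 raised to 5 the difference was -3.50.

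The dimmer probe set, 205699_at, read 4.93, 4.82 and 5.53 in DMSO and 3.64, 3.66 and 3.66 with teriflunomide. It again separated the groups, with DMSO replicate 3 above the other controls. Its log2 difference was -1.44 (SE 0.19), a 2.71-fold decrease. Most of that decrease lay below log2 5: with values under 5 raised to 5 it was -0.18 and was not called. Both MAP2K6 probe sets thus read lower with teriflunomide, by different amounts.

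**Figure D1:**
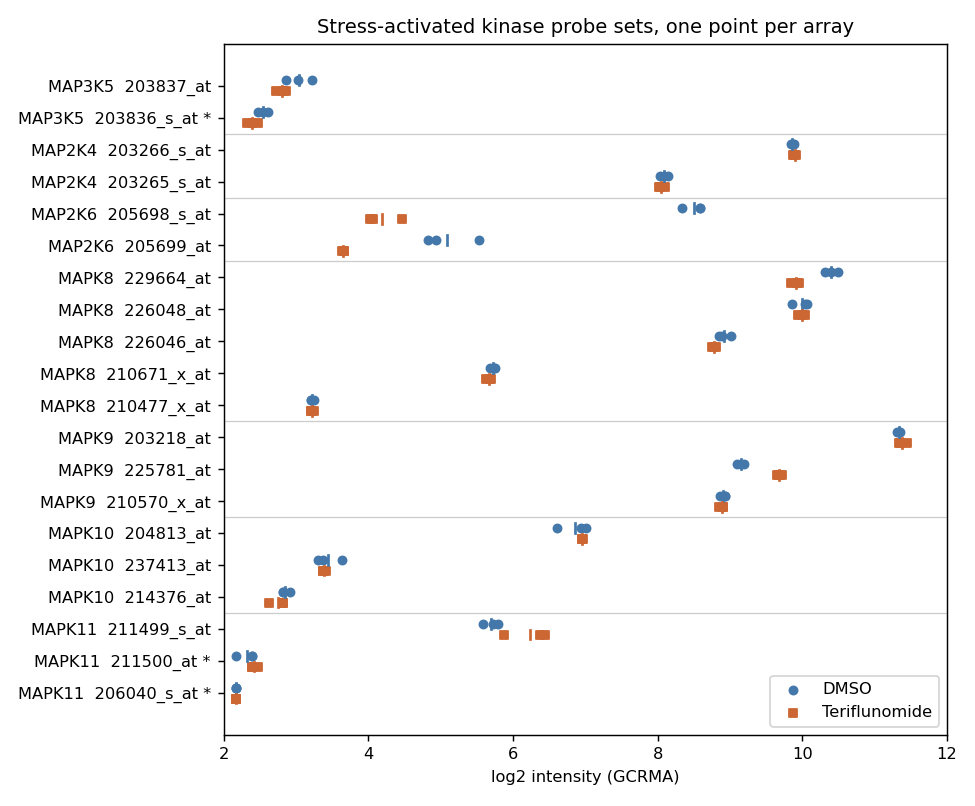
Log2 intensity on the horizontal axis for each of the 20 probe sets, with 1 point per array (circles for DMSO, squares for teriflunomide), a short bar at each group mean, and an asterisk at the 3 probe sets below the filter on dim values. MAP2K6 205698_s_at moves from a mean of 8.50 to 4.19, while most other probe sets have overlapping or nearly overlapping groups.

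MAP2K4, which can activate both JNK and p38, gave no called difference on either of its bright probe sets. Probe set 203266_s_at read 9.87, 9.88 and 9.84 in DMSO and 9.92, 9.88 and 9.88 with teriflunomide, a difference of 0.03 (SE 0.03, 95% interval -0.05 to 0.10). Probe set 203265_s_at read 8.09, 8.14 and 8.03 in DMSO and 8.10, 8.03 and 8.03 with teriflunomide, a difference of -0.03 (SE 0.04, 95% interval -0.15 to 0.08). The groups overlapped on both, and neither interval reached farther than 0.15 log2 units from 0. MAP3K5, the stress-responsive kinase at the head of the cascade, was close to the lowest value of the arrays. Its probe set 203837_at read 2.87, 3.22 and 3.03 in DMSO and 2.73, 2.83 and 2.86 with teriflunomide, which did not overlap by a small margin. The difference of -0.23 (SE 0.10) was not called, but it was called at -0.32 without DMSO replicate 1, and with values under log2 5 raised to 5 it vanished. The other MAP3K5 probe set, 203836_s_at, lay below the filter at 2.47 to 2.61 in DMSO and 2.32 to 2.47 with teriflunomide. No MAP3K5 value exceeded 3.22 on any array.

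MAPK8 encodes JNK1, the most widely expressed JNK together with JNK2, and its 5 probe sets did not move alike. Probe set 229664_at read 10.32, 10.49 and 10.40 in DMSO and 9.95, 9.84 and 9.93 with teriflunomide. Every treated array lay below every control on it, with a difference of -0.49 (SE 0.06, 95% interval -0.64 to -0.35). A second bright probe set, 226048_at, read 9.86, 10.04 and 10.07 in DMSO and 9.996, 9.94 and 10.04 with teriflunomide. Its groups overlapped, with a difference of 0.003 (95% interval -0.17 to 0.18). Probe set 226046_at read 8.85, 9.01 and 8.89 in DMSO and 8.78, 8.75 and 8.81 with teriflunomide. These groups just failed to overlap, and the difference of -0.13 (SE 0.05) was not called. The remaining MAPK8 probe sets, 210671_x_at and 210477_x_at, differed by -0.05 and 0.0008. The suffix _x_at marks probes that may also bind other transcripts. Probe set 210477_x_at stayed between 3.21 and 3.25 on every array, so its difference carries little information. A single MAPK8 value would therefore depend on the probe set chosen: the brightest one fell and 4 others were not called.

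MAPK9, which encodes JNK2, showed the same kind of split in the opposite direction. Probe set 225781_at read 9.16, 9.20 and 9.10 in DMSO and 9.64, 9.68 and 9.72 with teriflunomide. All treated arrays were higher, by 0.53 on average (SE 0.04, 95% interval 0.42 to 0.63), a 1.44-fold increase. Probe set 203218_at, bright as well, read 11.33, 11.35 and 11.31 in DMSO and 11.35, 11.44 and 11.33 with teriflunomide. Its groups overlapped, and its difference was 0.05 (SE 0.04, 95% interval -0.06 to 0.15). Probe set 210570_x_at differed by -0.02 (SE 0.04) with overlapping groups. The interval of 225781_at did not reach those of the other MAPK9 probe sets. The table does not say which transcripts or which ends of a transcript the MAPK8 and MAPK9 probe sets cover.

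MAPK10, the JNK gene expressed mainly in the nervous system, stood well above the lowest value of the arrays on 1 probe set. Probe set 204813_at read 6.61, 7.01 and 6.94 in DMSO and 6.95, 6.96 and 6.95 with teriflunomide. DMSO replicate 1 lay below the other arrays and the groups overlapped, with a difference of 0.10 (SE 0.11). Probe sets 237413_at and 214376_at stayed between 2.63 and 3.63 on every array, with differences of -0.05 and -0.10 that were not called. MAPK10 gave no called difference on any of its 3 probe sets.

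MAPK11 encodes p38β, and its single usable probe set was higher with teriflunomide. Probe set 211499_s_at read 5.79, 5.58 and 5.73 in DMSO and 6.44, 6.37 and 5.88 with teriflunomide. The groups did not overlap, although teriflunomide replicate 3 lay close to the controls. The difference was 0.53 (SE 0.16, 95% interval 0.11 to 0.94). The call was lost when DMSO replicate 1, DMSO replicate 2, DMSO replicate 3, teriflunomide replicate 1 or teriflunomide replicate 2 was left out (differences of 0.42 to 0.57), and it held at 0.70 without teriflunomide replicate 3. It was also lost with no filter, with values under log2 5 raised to 5 and with the replicate number as a block. The other MAPK11 probe sets were below the filter, 206040_s_at at the lowest value on all 6 arrays and 211500_at at 2.18 to 2.48.

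Over the members, 17 of 20 probe sets passed a filter on dim values (at or above the array median on at least 3 arrays, blind to treatment), and all 7 genes kept at least 1. At a limma adjusted p under 0.05, 2 of the 17 were called higher (MAPK9 225781_at and MAPK11 211499_s_at) and 3 lower (both MAP2K6 probe sets and MAPK8 229664_at). Among all 27290 probe sets past the filter, 23.7% were called higher and 25.2% lower. The groups did not overlap upward for 2 and downward for 5 of the 17, where 29.3% and 30.8% of all probe sets did so. The median absolute log2 difference was 0.10 over the 17 and 0.28 over all probe sets. At least 2-fold called differences were seen on 2 member probe sets, those of MAP2K6, and on 10.4% of all probe sets. Nothing is read from these shares, since this comparison led to the choice of members; the call count for higher went from 2 to 1 in every case in which MAPK11 was lost.

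**Figure D2:**
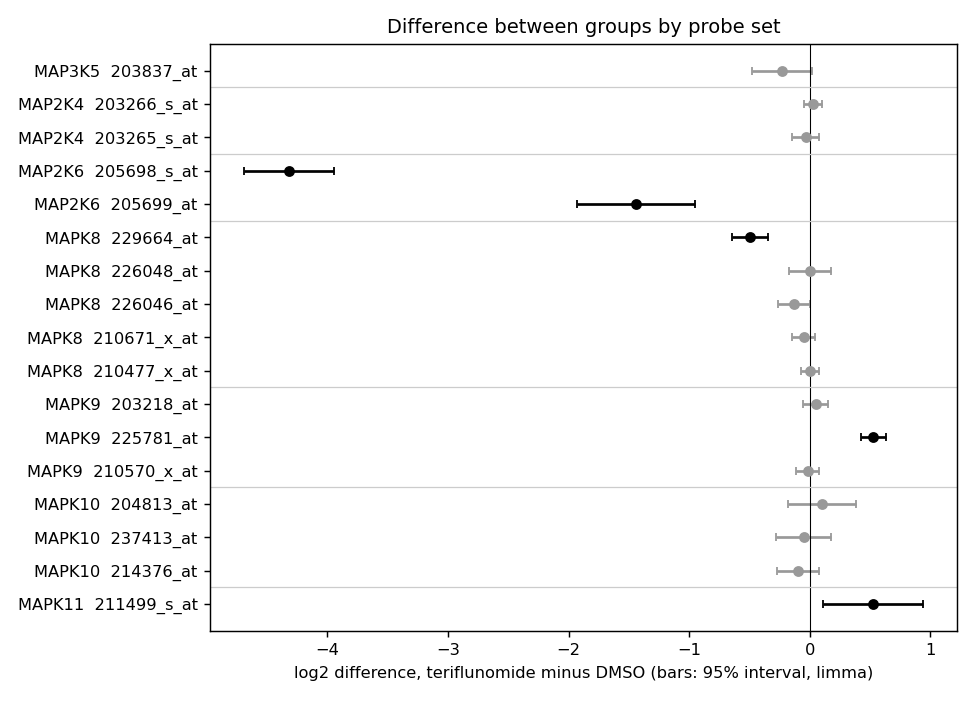
Log2 difference between teriflunomide and DMSO (points) with its 95% interval from limma (bars) for the 17 probe sets past the filter, black where called and grey where not. Both MAP2K6 probe sets lie below 0 at -4.32 and -1.44, and all others lie between -0.49 and 0.53.

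The genes whose profiles over the 6 arrays were nearest to that of MAP2K6 were found by the root mean square distance between log2 values, each taken relative to its own DMSO mean. They were ELAC1, a tRNA-processing enzyme, at a distance of 0.28, TMEM169, a transmembrane protein gene, at 0.44, LNP1 at 0.47, ADAMTS8, a secreted metalloprotease, at 0.47, and HOXD10, a homeobox gene, at 0.51. ELAC1 read 8.82, 8.89 and 8.90 in DMSO and 4.18, 4.53 and 3.84 with teriflunomide. HOXD10 was dimmer and read 5.72, 6.13 and 5.96 in DMSO and 2.41, 2.22 and 2.25 with teriflunomide, close to the lowest value of the arrays. The measure favours any gene with a decrease of similar size, and with 2 conditions it carries no more than that.

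**Figure D3:**
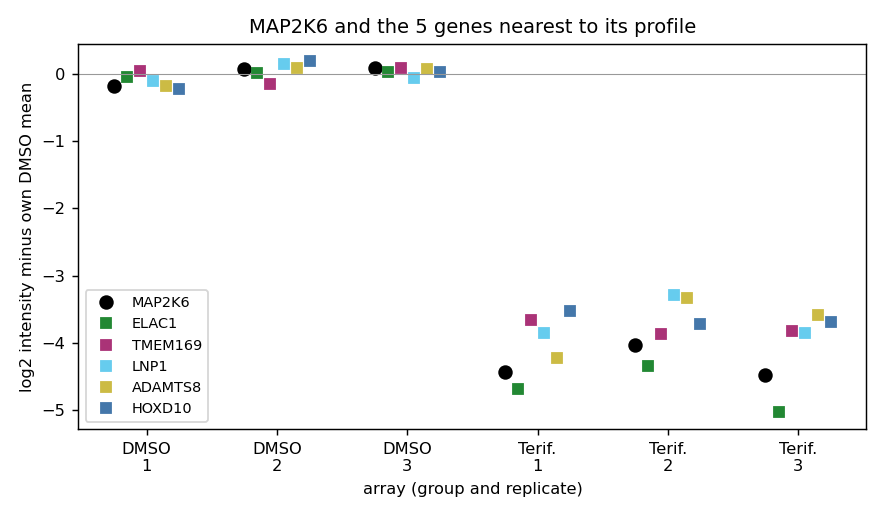
Log2 intensity minus the gene's own DMSO mean (vertical axis) on each of the 6 arrays (horizontal axis) for MAP2K6 (black circles) and the 5 genes nearest to it (coloured squares). All 6 genes lie near 0 on the DMSO arrays and more than 3 log2 units lower on the teriflunomide arrays.

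Around the members, 79 further genes of the pathway were listed by role, of which 66 were tested with 1 probe set each. With teriflunomide 34 rose and 9 fell, against 29.7% higher and 28.9% lower among all 11998 genes tested (limma, adjusted p under 0.05). The median log2 difference was 0.23 over the 66 and 0.001 over all genes. Called differences of at least 2-fold were 7 higher and 1 lower, where 5.24% and 4.53% of all genes had them. The lists were drawn up with earlier results of these data known. Their counts, differences and adjusted p values below are therefore descriptions and support no claim about the lists. The counts of each list are to be set beside the shares over all genes given here.

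The phosphatases that act on p38 and JNK held 5 of these 8 genes. Of 10 tested, 6 rose, 1 fell and 3 were not called, with a median of 0.60 (all genes: 29.7% higher, 28.9% lower). DUSP4, a nuclear MAP kinase phosphatase, read 4.08, 4.08 and 4.12 in DMSO and 6.53, 6.67 and 6.59 with teriflunomide. Its difference was 2.50 (SE 0.04, limma adjusted p = 8.73e-06), and 1.60 with values under log2 5 raised to 5. DUSP8, which acts on JNK and p38, read 5.18, 5.60 and 5.41 and then 7.44, 7.12 and 7.46, a difference of 1.94 (SE 0.14). Its other probe set gave 0.79 and was not called. DUSP10, another JNK and p38 phosphatase, read 7.90, 7.46 and 7.56 and then 9.05, 8.91 and 8.95, a difference of 1.33 (SE 0.12), and its other probe set gave 1.504. No treated array overlapped a control for any of these. DUSP1, the immediate early phosphatase of p38 and JNK, rose by 1.05 (SE 0.05). Its other tested probe set, dim at a mean of 3.91, gave 0.02 and was not called. DUSP1 is named outside the naming rule, its value having been seen. PPM1L, a PP2C-type phosphatase described as an inhibitor of this cascade, moved the other way: it read 9.78, 9.69 and 9.68 in DMSO and 7.87, 7.89 and 7.74 with teriflunomide. That is a difference of -1.88 (SE 0.05, limma adjusted p = 2.52e-05), with smaller decreases of -0.31 and -0.69 on its other tested probe sets and -0.96 as the mean of all.

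Among transcription factors phosphorylated by JNK or p38, 7 of 10 tested rose, 0 fell and 3 were not called, with a median of 0.41. Over all genes 29.7% were higher and 28.9% lower. The counts of the list hold for the probe set that stood for each gene. ATF2, not called at -0.01, gave -1.18 on its other tested probe set and is named outside the naming rule. DDIT3, which encodes CHOP and is a p38 substrate, read 7.29, 7.61 and 7.63 in DMSO and 12.49, 12.39 and 12.32 with teriflunomide, a difference of 4.89 (SE 0.11, limma adjusted p = 1.54e-05). JUN, the AP-1 subunit after which JNK is named, read 11.98, 11.88 and 12.03 and then 13.34, 13.28 and 13.40, a difference of 1.38 (SE 0.05, limma adjusted p = 4.01e-05). All 4 JUN probe sets rose, the others by 0.77, 1.32 and 1.85. JUND, a further AP-1 subunit, rose by 1.28 (SE 0.06) on its bright probe set, while 2 dim ones gave 0.15 and 0.10 and were not called, so the mean of its probe sets was 0.51.

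Of 20 tested upstream MAP3K and MAP4K genes, 8 rose, 7 fell and 5 were not called, with a median of -0.03. Over all genes 29.7% were higher and 28.9% lower. On the probe set that stood for each gene, no called difference reached 2-fold. MAP3K13 (LZK), a JNK-activating kinase of the mixed-lineage family, went from 11.45 ± 0.04 to 12.13 ± 0.06 (SD, n = 3), a difference of 0.67 (SE 0.04, limma adjusted p = 0.000137). Another bright MAP3K13 probe set gave 0.59, and dim ones gave -0.48 and -0.39 and were not called, so that the mean of its probe sets, 0.10, was not called either. MAP3K12 (DLK), its relative in neuronal stress signalling, rose by 0.73 (SE 0.18, limma adjusted p = 0.0182). Its other probe sets gave 0.50 and, not called, 0.09, and the mean of all was 0.44. The call was lost without teriflunomide replicate 1 (0.63, adjusted p = 0.061) and with no filter (adjusted p = 0.0619). MAP3K1 rose by 0.44 (SE 0.06), with 0.19, not called, on a dim probe set. MAP4K4, a kinase upstream of JNK, fell by 0.57 on its brightest probe set (SE 0.10, limma adjusted p = 0.00427) and by 0.63 to 1.18 on the other called ones (-0.86 as the mean of all), and MAP3K11 (MLK3) and MAP3K21 fell by 0.36 and 0.34.

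Of 9 tested scaffolds and activators, 7 rose, 0 fell and 2 were not called, with a median of 0.34. Over all genes 29.7% were higher and 28.9% lower. TAB1, not called and named outside the naming rule, was dim at 3.84 to 3.87 on every array. GADD45A, a stress-induced activator of MAP3K4, read 12.42, 12.27 and 12.27 in DMSO and 13.31, 13.24 and 13.32 with teriflunomide, a difference of 0.97 (SE 0.06, limma adjusted p = 0.000103). TRAF6, an adaptor that leads to TAK1, rose by 0.58 (SE 0.10), but its other probe set gave -0.20, not called, and the mean of both was not called at 0.19 (adjusted p = 0.0725). SH3RF1 (POSH), a JNK scaffold, rose by 0.37 (SE 0.07), while a dim probe set stood at 0.01 and was not called, and the mean of both was 0.19. Of 7 kinases activated by p38, 2 rose, 1 fell and 4 were not called, with a median of 0.22 (all genes: 29.7% higher, 28.9% lower). Among those not called, the other tested probe set gave 0.90 for MAPKAPK3, 0.60 for MKNK1 and -0.002 for MAPKAPK2. RPS6KA4, not called either, stayed between 2.69 and 2.99 on every array. MAPKAPK3, MKNK1 and RPS6KA4 are named outside the naming rule. RPS6KA5 (MSK1) rose by 0.88 (SE 0.09, limma adjusted p = 0.000593) and MKNK2 by 0.60 (SE 0.05), while MAPKAPK5 (PRAK) fell by 0.75 (SE 0.09, limma adjusted p = 0.00134). MAPKAPK2, the best known p38 target kinase, named outside that rule as well, stood at 0.15 (SE 0.10) and was not called.

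Of 10 tested genes of the remaining p38 kinases and the ERK branch, 4 rose, 0 fell and 6 were not called. Their median was 0.13, and over all genes 29.7% were higher and 28.9% lower. MAPK12, which encodes p38γ, went from 8.57 ± 0.01 to 8.92 ± 0.06 (SD, n = 3), a difference of 0.34 (SE 0.04, limma adjusted p = 0.000777). MAPK3 (ERK1) rose by 0.54 (SE 0.08) and MAP2K2 (MEK2) by 0.33 (SE 0.04), with 0.18, not called, on another MAP2K2 probe set. The largest difference in these lists outside the members, that of DDIT3, was positive, and the largest decrease, that of PPM1L, was smaller than that of MAP2K6 on its brighter probe set.

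**Figure D4:**
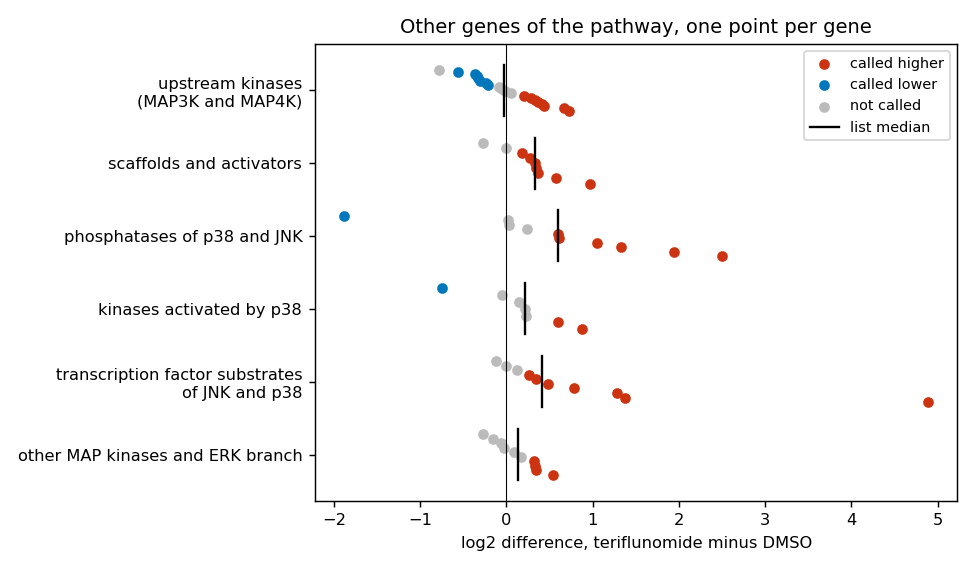
Log2 difference between teriflunomide and DMSO (horizontal axis) for the 66 tested genes of 6 role lists, 1 point per gene, red where called higher, blue where called lower and grey where not called, with a black bar at each list's median. DDIT3 at 4.89 and DUSP4 at 2.50 lie farthest to the right and PPM1L at -1.88 farthest to the left.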

How the data were processed

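RNA of 3 DMSO and 3 teriflunomide samples was labelled with biotin and measured on Affymetrix arrays. The authors deposited log2 intensities per probe set. Per the submitters' processing notes these come from GCRMA, with version and settings not given in the sources used here. GCRMA subtracts a sequence-based background, equalises the array distributions and summarises probes, so a change shared by all transcripts is hidden. Arrays give no read depth, and their number limits the precision.

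Of 54675 probe sets, 62 were controls, 41097 had 1 gene symbol in the platform annotation, 1801 several and 11777 none here. Of the first, 41043 were matched by gene ID to GRCh38.p14 gene names, and 0 symbols changed. Probe sets at or above their array's median on at least 3 of 6 arrays were tested (27290). For gene lists the probe set with the highest mean stood for a gene (11998 genes). Groups were compared with limma 3.58.1 (R 4.3.3; lmFit, eBayes, no covariates), two-sided, with Benjamini-Hochberg adjustment over all probe sets or genes tested and a threshold of 0.05. Scripts ran in Python 3.11.15, and the fit was tested on simulated data. Same-numbered replicates did not all deviate together, so the number was not taken as pairing.

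The members and lists were chosen with earlier results of these data known. The rule for names took all members, up to 3 called genes per direction and list, the 5 genes nearest to MAP2K6 and the cell type markers. Alternatives were no filter, a stricter one at the 75th percentile, quantile normalization, median centring, values under log2 5 raised to 5, trended and robust eBayes, array weights, a replicate block, other probe set rules and leaving out each array. Promoter sequences came from RefSeq (GRCh38.p14), where all 10 members matched by symbol; the array table names no build.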

Additional observations from a re-analysis of the deposited data

Results flagged for a closer look

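Signal appeared in 3 probe sets that the single-symbol rule leaves out, because their annotation lists MAP2K3, the closest relative of MAP2K6 and likewise a p38 activator, together with the pseudogene LOC100996792. Which of these transcripts they measured cannot be told apart here. Probe set 215498_s_at read 8.13, 8.48 and 8.28 in DMSO and 6.06, 6.22 and 6.21 with teriflunomide, a log2 difference of -2.13 (SE 0.10), or 4.39-fold lower. Probe set 215499_at read 8.57, 8.51 and 8.54 and then 6.59, 6.87 and 6.82, a difference of -1.78 (SE 0.08). Both were called lower by limma. Probe set 207667_s_at read 6.29, 6.08 and 7.21 and then 5.68, 5.66 and 5.68, a difference of -0.85 (SE 0.30) that was not called, with DMSO replicate 3 above the other controls. On all 3 probe sets each treated array lay below each control.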

How the results depend on the processing

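Every called member kept its direction under each alternative run in which it was tested. The count of member probe sets called higher, 2, became 1 with no filter, with the filter at the 75th percentile (where MAPK11 was not tested), with values under log2 5 raised to 5 and with the replicate block, and was 1 to 2 when 1 array was left out; MAPK11 was the one lost. The count called lower, 3, was 2 to 4. Pathway genes called higher numbered 29 to 36 and lower 8 to 11 over all settings. The replicate numbers were a doubtful pairing: deviations of same-numbered arrays correlated at 0.13, 0.15 and -0.05. Those of differently numbered arrays correlated at -0.19 to 0.06, so pairing is neither shown nor excluded. With the block, MAP2K6 stayed at -4.32 and -1.44, and 33 pathway genes were higher and 8 lower. Signal near the background limits MAP3K5, the dim MAPK10 probe sets, MAP2K6 and DUSP4, whose differences moved when those under log2 5 were raised. It also limits the dim MAPK8 probe set 210477_x_at. With values under log2 5 raised to 5, MAP3K12, DUSP8, JUN and DDIT3 did not move. Over all probe sets, calls numbered 6458 higher and 6873 lower, and 5086 and 5450 with no filter; the share of calls that were higher stayed within 47.5% to 49.7%.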
